A study of Mus musculus with 2 samples.

Results

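Redox defence and metallothionein genes were described in single stromal and mesothelial cells of gonadal white adipose tissue (gWAT). The set has 10 genes: Nfe2l2, Hmox1, Nqo1, Gclm, Txnrd1, Txnip, Gpx3, Sod3, Mt1 and Mt2. They were picked by symbol, and all 10 were found among the 31054 genes counted in both libraries. Single-cell RNA was sequenced from CD31- CD45- cells of the stromal vascular fraction of 18-month-old male p16-CreERT2/R26-LSL-tdTomato mice, all treated with tamoxifen. In these mice the p16 locus drives a Cre recombinase that tamoxifen activates, and Cre activity switches on the tdTomato reporter, so that cells with high p16, a marker of senescence, can be sorted by colour. Sorted tdTomato-positive cells gave the Tom+ library and tdTomato-negative cells the Tom- library. There was 1 library per group, and the sources used here do not give the number of mice behind each, so no difference between Tom+ and Tom- has a replicate check and no p-value is given. Intervals are 95% intervals that cover counting error only.

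The 10 genes belong to 3 linked systems. NRF2, the transcription factor encoded by Nfe2l2, is held low by KEAP1 in resting cells and, when oxidants or electrophiles modify KEAP1, binds antioxidant response elements together with small MAF proteins to switch on enzymes of heme breakdown, quinone reduction, glutathione synthesis and thioredoxin reduction. Thioredoxin itself is inhibited by TXNIP, an arrestin-family protein that also lowers glucose uptake and whose gene responds to glucose. Metallothioneins are small cysteine-rich proteins that bind zinc and copper, and their genes respond to metals through the factor MTF1 and to glucocorticoids and inflammatory cytokines. Adipose stromal cells include the progenitors of fat cells, whereas mesothelial cells form the sheet that covers visceral fat.

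The Tom+ library listed 5566 barcodes with 61119807 UMIs (unique molecular identifiers, each standing for 1 captured RNA molecule) and the Tom- library 11838 barcodes with 96872394 UMIs. Cells with over 1000 and under 7000 genes and under 8% mitochondrial UMIs were kept, which left 3524 and 6717 cells. A cell was called mesothelial with at least 10 UMIs summed over Msln, Upk3b, Krt19, Lrrn4 and Upk1b and stromal with fewer than 5, giving 250 mesothelial and 3263 stromal cells for Tom+ and 1887 and 4800 for Tom-, with 11 and 30 cells between these limits left out. A check list of 5 other mesothelial genes summed to 1390 and 1561 counts per 1000000 UMIs (CPM) in the mesothelial cells against 173 and 271 CPM in the stromal cells, where the sum was mostly Wt1, at 170.2 and 263 CPM. A list of 7 stromal genes summed to 29673 and 31013 CPM in the stromal cells and to 13340 and 15002 CPM in the mesothelial cells, so the mesothelial class also carried stromal transcripts. Taken singly, all 7 were past 1.5-fold lower in mesothelial cells of both libraries, beside 16.2% and 13.9% of all genes. Their median log2 ratios were -2.71 for Tom+ and -2.46 for Tom-. Cells with at least 7563 UMIs were reduced to that depth. Cells with at least 1% of UMIs from immunoglobulin genes were set aside, as in the shares of cells with a UMI below. Of stromal cells, 17.1% of Tom+ and 9.11% of Tom- then held a tdTomato UMI, and of mesothelial cells 69.6% and 6.04%. Among the cells set aside the shares were 88.8% and 9.84%. Levels differed more than shares in stromal cells. Mean tdTomato UMIs per thinned cell were 1.34 and 0.103 in stromal, 7.06 and 0.066 in mesothelial, and 4.84 and 0.115 in the cells set aside.

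The libraries differed in other respects that bear on every comparison. Barcodes numbering 2224 were listed in both, and 404 of the Tom+ and 75 of the Tom- stromal cells had such a barcode. Among mesothelial cells, 100 of the 250 Tom+ and 207 of the 1887 Tom- cells had one. Of the 2224, 807 had fewer than 5% as many UMIs in 1 library as in the other, with a median of 2.26% among those. Why barcodes were listed in both was not tested. Immunoglobulin genes took 6.06% of the UMIs of Tom+ stromal cells and 1.59% of those of Tom- stromal cells, and 145 and 67 stromal cells were immunoglobulin-rich, with at least 1% of their UMIs from those genes. The 4 immune marker genes summed to 153 and 32.7 CPM in stromal cells and to 316 and 20.7 CPM in mesothelial cells of the Tom+ and Tom- libraries. A panel of 18 genes known to respond to enzymatic tissue dissociation summed to 30879 CPM in Tom+ and 37284 CPM in Tom- stromal cells, and to 30720 and 32783 CPM in the mesothelial cells. The part of these differences in the values below was not tested beyond the ratios given without shared barcodes or without immunoglobulin-rich cells. Cells with UMIs of the macrophage markers Lyz2, Cd68 and Ptprc were left out only as an alternative setting, whose ratios are not given singly.

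Among stromal cells, Txnip was higher and Mt1 lower in the Tom+ library, and these were the 2 members past a 1.5-fold difference. Thus 1 member of 10 was past 1.5-fold upward and 1 downward, beside 3.86% and 3.25% of the 9778 genes whose mean reached 5 CPM, and the median log2 ratio of the members was -0.23 beside 0.07 for all those genes. Among mesothelial cells, Gpx3 was the 1 member past 1.5-fold, lower in the Tom+ library, beside 1.16% of 10014 genes lower and 1.87% higher, and no member was higher by that much. These shares of all genes apply to every list compared between the libraries below, so none past 1.5-fold in a short list says little. Mesothelial and stromal cells of the same library differed far more. Hmox1, Gclm and Txnrd1 were higher in mesothelial cells and Txnip, Gpx3 and Sod3 were lower in both libraries, and Mt1 was lower in the Tom- library only by this limit. By this limit 6 members differed in Tom+ and 7 in Tom- cells, where 22.6% and 21.0% of all genes were higher and 16.2% and 13.9% lower in mesothelial cells. At shares this high in all genes, and with 10 members, the counts say nothing particular to the set, and the values of each gene follow.

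**Figure D1:**
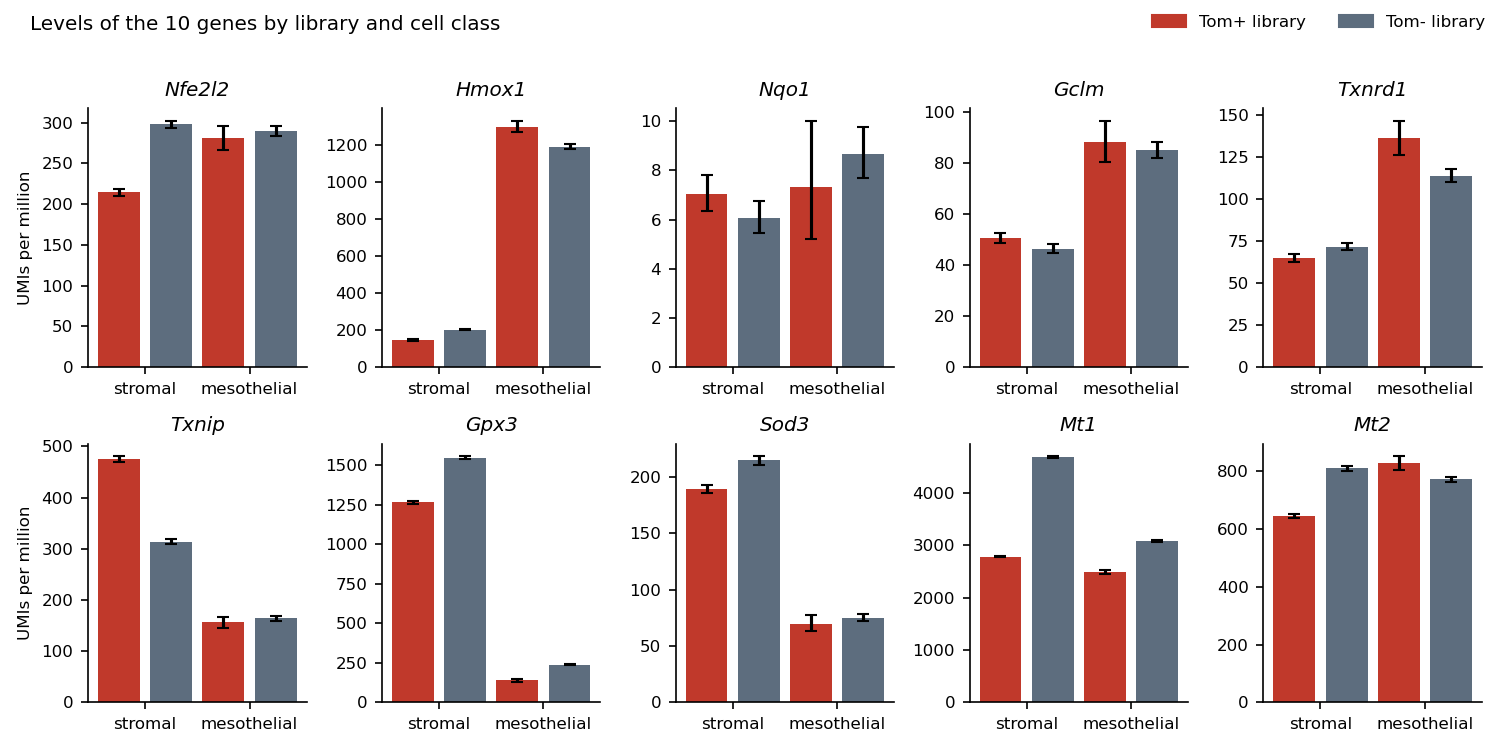
Level of each of the 10 genes in counts per 1000000 UMIs (vertical linear axis) in stromal and mesothelial cells of the Tom+ and Tom- libraries, with 95% counting intervals as error bars. Hmox1 sits at 1297 and 1190 CPM in the mesothelial groups and at 147 and 202.0 CPM in the stromal groups, and Gpx3 shows the opposite order.

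Nfe2l2 (ENSMUSG00000015839, chr2:75675513-75704641, minus strand, GRCm38), the gene of NRF2, reached 214 CPM (210 to 219) among Tom+ stromal cells and 298 CPM (293 to 302) among Tom- stromal cells, and 281 CPM (267 to 295) and 290 CPM (284 to 295) in the mesothelial cells. The Tom+ stromal cells were the low group, and the intervals of the other 3 lay close together. The log2 ratio of Tom+ over Tom- was -0.47 (-0.51 to -0.44) in stromal cells, with 4.83% of genes below it, and -0.04 (-0.12 to 0.04) in mesothelial cells. Without immunoglobulin-rich cells the stromal ratio was -0.39, and without barcodes listed in both libraries it was -0.35. In mesothelial cells the sign turned to 0.14 without shared barcodes, so no direction is given there.

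Of 12 genes that regulate or partner NRF2, 1 was past 1.5-fold lower and none higher in Tom+ stromal cells, beside 3.25% and 3.86% of all genes. The 1 gene was Maff, a small MAF protein, with 254 CPM against 537 CPM in Tom- stromal cells, a log2 ratio of -1.08 (-1.11 to -1.05). In mesothelial cells the 1 past 1.5-fold was Sesn2, which encodes a stress-induced sestrin, with a log2 ratio of 0.61. That is just past the limit of 0.585, and 1.87% of all genes were higher and 1.16% lower there. Transcript levels of these genes do not report NRF2 protein or its activity, which is set largely by protein turnover.

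Hmox1 (ENSMUSG00000005413, chr8:75093621-75100589) encodes heme oxygenase 1, the inducible enzyme that splits heme into biliverdin, carbon monoxide and iron. Tom+ stromal cells held it at 147 CPM (144 to 150) and Tom- stromal cells at 202.0 CPM (198 to 206), against 1297 CPM (1267 to 1328) and 1190 CPM (1178 to 1202) in mesothelial cells. Both mesothelial groups were thus far above both stromal groups, by 8.83-fold among Tom+ cells (log2 ratio 3.14, 3.095 to 3.19) and 5.89-fold among Tom- cells (2.56, 2.53 to 2.59). Between the libraries, Hmox1 was lower in Tom+ stromal cells with a log2 ratio of -0.46 (-0.50 to -0.42), and slightly higher in Tom+ mesothelial cells with 0.13 (0.09 to 0.16). Neither was past 1.5-fold, and the signs were the same under 11 of 11 alternative settings. Over those settings the mesothelial value ranged from 0.05 to 0.24. The stromal direction was still lost in some quintiles of stromal cells described with the gene panels. By glucocorticoid response genes it was 0.16 in the lowest and -0.52 in the highest quintile. In mesothelial cells without a UMI of the stromal gene Lum the ratio was 0.04 (-0.005 to 0.09). In those with at least 1 it was 0.21 (0.15 to 0.27). Without shared barcodes the mesothelial over stromal ratios were 3.28 and 2.52.

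At 7563 UMIs per cell, a Hmox1 UMI was found in 44.9% of Tom+ and 51.1% of Tom- stromal cells and in 81.0% and 77.4% of mesothelial cells, and without thinning in 59.8% and 59.9% and in 89.6% and 84.8%. Cells with fewer UMIs were left out of these shares, 269 and 640 stromal and 3 and 99 mesothelial cells. Immunoglobulin-rich cells, which are not known to be a main source of the gene, held a Hmox1 UMI in 23.1% and 29.5% of cells at the same depth (median depth before thinning 39262 and 29519 UMIs, against 14020.5 and 11232 in stromal and 18601.5 and 14750.5 in mesothelial cells). The 10% of thinned cells with most Hmox1 held 58.6% and 57.0% of its UMIs in the stromal class, where its level was lower, and 36.7% and 41.7% in the mesothelial class. The median cell held 0 and 1 Hmox1 UMIs in the stromal and 7 and 4 in the mesothelial class, and the variance over the mean was 7.82 and 6.98 in stromal and 12.6 and 16.0 in mesothelial cells.

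Gclm (ENSMUSG00000028124, chr3:122245557-122270732), the modifier subunit of the enzyme that starts glutathione synthesis, was counted at 50.6 and 46.4 CPM in Tom+ and Tom- stromal cells and at 88.3 and 85.2 CPM in mesothelial cells. Its mesothelial over stromal log2 ratio was 0.80 (0.66 to 0.95) for Tom+ and 0.88 (0.80 to 0.95) for Tom-. Between libraries its ratios of 0.13 and 0.05 changed sign under some alternative settings. The stromal Gclm ratio was 0.72 in the lowest and -0.19 in the highest quintile of stromal cells by the dissociation panel. Txnrd1 (ENSMUSG00000020250, chr10:82833951-82897712), the cytosolic thioredoxin reductase, gave 65.0 and 71.8 CPM in stromal cells and 136 CPM (127 to 147) and 114 CPM (111 to 118) in mesothelial cells. Mesothelial cells were again higher, by 2.10-fold and 1.59-fold, and the Tom+ over Tom- log2 ratio was -0.14 (-0.21 to -0.08) in stromal and 0.26 (0.14 to 0.37) in mesothelial cells. The 1.59-fold value was close to the limit and passed it under 8 of 11 alternative settings. The stromal direction of Txnrd1 between libraries was lost in some quintiles of stromal cells described with the gene panels. Its log2 ratio was 0.19 in the lowest and -0.22 in the highest quintile by the interstitial progenitor panel.

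Nqo1 (ENSMUSG00000003849, chr8:107388225-107403206, minus strand), a quinone reductase that is widely used as a readout of NRF2, was sparse in every group. It had 7.04 CPM from 360 UMIs and 6.08 CPM from 352 UMIs in Tom+ and Tom- stromal cells, and 7.33 CPM from 39 UMIs and 8.69 CPM from 281 UMIs in mesothelial cells. The intervals of the stromal groups overlapped, as did those of the mesothelial groups, and the Tom+ over Tom- log2 ratios were 0.21 (-0.0039 to 0.43) and -0.25 (-0.77 to 0.24). Both ratio intervals crossed the value of no difference, so no direction is given. The stromal interval lay inside 1.5-fold in either direction, and the mesothelial one reached past it. The stromal Nqo1 ratio varied between the quintiles described with the gene panels. In the quintile lowest in the dissociation panel, Nqo1 had 11.4 CPM (9.44 to 13.65) for Tom+ and 5.94 CPM (4.65 to 7.47) for Tom-. The log2 ratio was 0.94 there and -0.20 in the highest quintile.

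A list of 20 other NRF2 targets, of which 19 reached a mean of 5 CPM, had no gene past 1.5-fold between Tom+ and Tom- in stromal or in mesothelial cells. The list's median log2 ratio was -0.04 in stromal and -0.02 in mesothelial cells, beside 0.07 and 0.03 for all genes. Between mesothelial and stromal cells 7 of 19 were higher and 3 lower among Tom+ cells and 6 higher and 5 lower among Tom- cells, beside 22.6% and 16.2% of all genes for Tom+ and 21.0% and 13.9% for Tom-. Gsta4, which encodes a glutathione transferase that acts on lipid aldehydes, was higher with log2 ratios of 3.39 and 3.29, and Osgin1 with 2.19 and 2.03. Ugdh, which makes UDP-glucuronate, was lower with -2.00 and -2.19, and the glutathione transferase gene Gstm1 with -1.30 and -1.22. The higher level of Hmox1, Gclm and Txnrd1 in mesothelial cells was thus not shared by every NRF2 target.

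**Figure D2:**
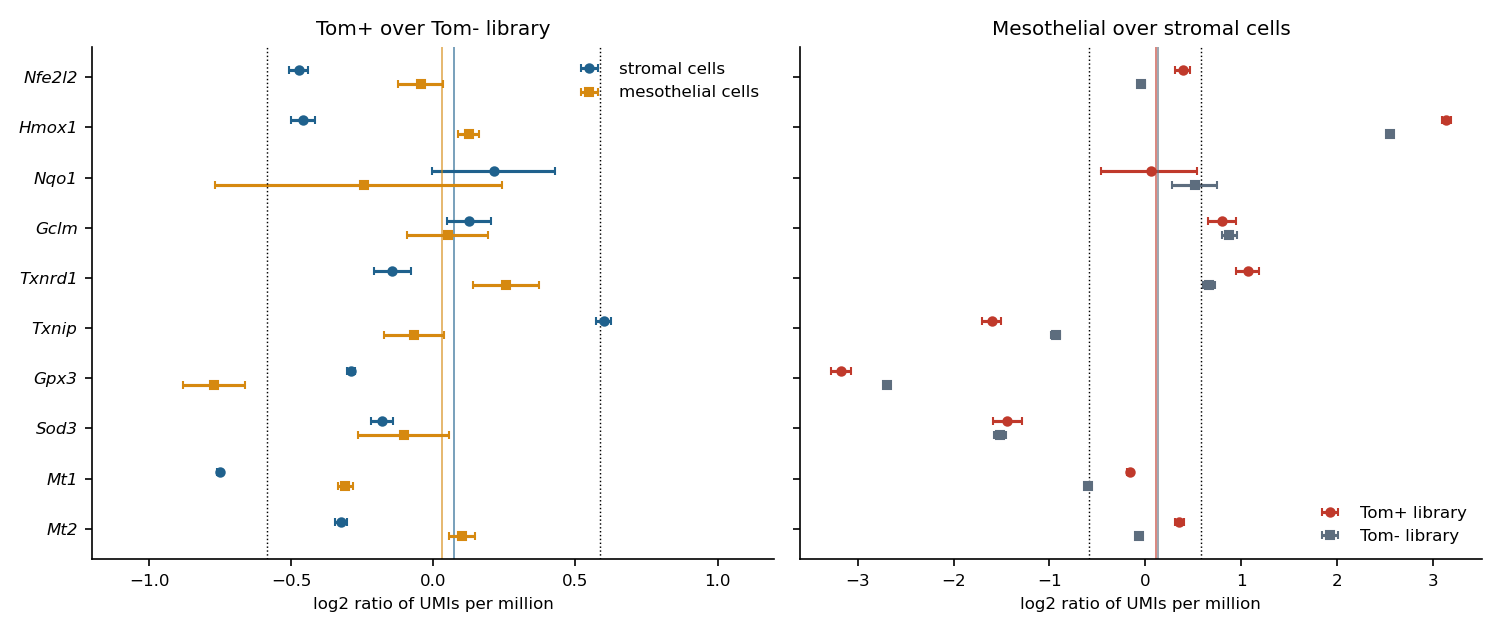
Log2 ratios of the 10 genes with 95% counting intervals in 4 comparisons, Tom+ over Tom- in stromal and in mesothelial cells and mesothelial over stromal in each library. Lines mark 1.5-fold in either direction, and Hmox1 at 3.14 and Gpx3 at -3.18 in the Tom+ library lie farthest from 0.

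Txnip (ENSMUSG00000038393, chr3:96557957-96561883) was the member with the highest ratio of Tom+ over Tom- in stromal cells. Tom+ stromal cells held 475 CPM (469 to 481), Tom- stromal cells 314 CPM (309 to 318), and mesothelial cells 157 CPM (146 to 168) and 164 CPM (160 to 169). The stromal groups did not overlap while the mesothelial ones did, and the Tom+ over Tom- log2 ratios were 0.60 (0.57 to 0.63), or 1.51-fold, and -0.07 (-0.17 to 0.04). The stromal value, which was above that of 96.4% of genes, lay just past the limit: it was past it under 9 of 11 alternative settings, and ranged from 0.52 to 0.74. Without immunoglobulin-rich cells it was 0.66, and without barcodes listed in both libraries 0.74. The mesothelial ratio between the libraries ranged from -0.40 without shared barcodes to 0.19 over all deposited barcodes. It was -0.27 (-0.42 to -0.12) in mesothelial cells without a Lum UMI and 0.19 (0.04 to 0.35) in those with at least 1. No direction is given there. Mesothelial cells were lower than stromal cells in Txnip, with log2 ratios of -1.60 (-1.70 to -1.50) and -0.93 (-0.98 to -0.89).

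The 250 bases before the Txnip start are shown because they hold a pair of CACGNG boxes with 5 bases between them, as in a carbohydrate response element, the site through which glucose acts on this gene. The sequence is from RefSeq on GRCm38.p6, plus strand, chr3:96557707-96557956, 5′ to 3′, with the boxes and the bases between them in capitals.
Txnip: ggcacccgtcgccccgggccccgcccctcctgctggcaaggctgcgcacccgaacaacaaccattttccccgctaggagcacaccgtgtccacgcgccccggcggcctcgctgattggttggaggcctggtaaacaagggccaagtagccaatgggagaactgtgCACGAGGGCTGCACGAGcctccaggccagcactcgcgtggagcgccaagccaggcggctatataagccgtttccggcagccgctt
The match lies 85 to 69 bases before the RefSeq start, and 15 of 32851 promoter windows of this length, 0.0457%, hold one on either strand. It describes the letters of this window and is not evidence that a factor bound there.

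At 7563 UMIs per cell, a Txnip UMI was found in 60.4% (58.6 to 62.2) of Tom+ and 44.1% (42.6 to 45.6) of Tom- stromal cells and in 46.6% and 43.4% of mesothelial cells, and without thinning in 68.1% and 49.7% of stromal cells. Immunoglobulin-rich cells held one in 58.0% and 47.5% of cells. The 10% of stromal cells with most Txnip held 51.3% of its UMIs among Tom+ and 67.8% among Tom- cells, where its level was also lower.

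The Txnip difference varied along the level of the dissociation panel. Stromal cells of each library, without the immunoglobulin-rich ones, were ranked by the summed level of the dissociation panel and split into 5 quintiles. From the quintile lowest in the panel upward, Txnip was at 286, 396, 462, 651 and 840 CPM among Tom+ cells and at 75.7, 182, 290.4, 411 and 740 CPM among Tom- cells. Txnip thus rose with the panel in both libraries, and the Tom+ over Tom- log2 ratio fell from 1.92 in the lowest quintile to 1.12, 0.67, 0.66 and 0.18 in the highest. The quintiles were cut within each library, so equal ranks do not mean equal panel levels. Jun and Fos, which belong to the panel, were 2 of the 3 genes whose level followed Txnip most closely from cell to cell, with Pearson r of 0.567 and 0.558 for Jun and 0.449 and 0.445 for Fos in the 3263 Tom+ and 4800 Tom- stromal cells. The other was Angptl4, a secreted inhibitor of lipoprotein lipase, with 0.538 and 0.582. These correlations are descriptions across cells of 1 library each, which share that library and vary in depth.

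**Figure D3:**
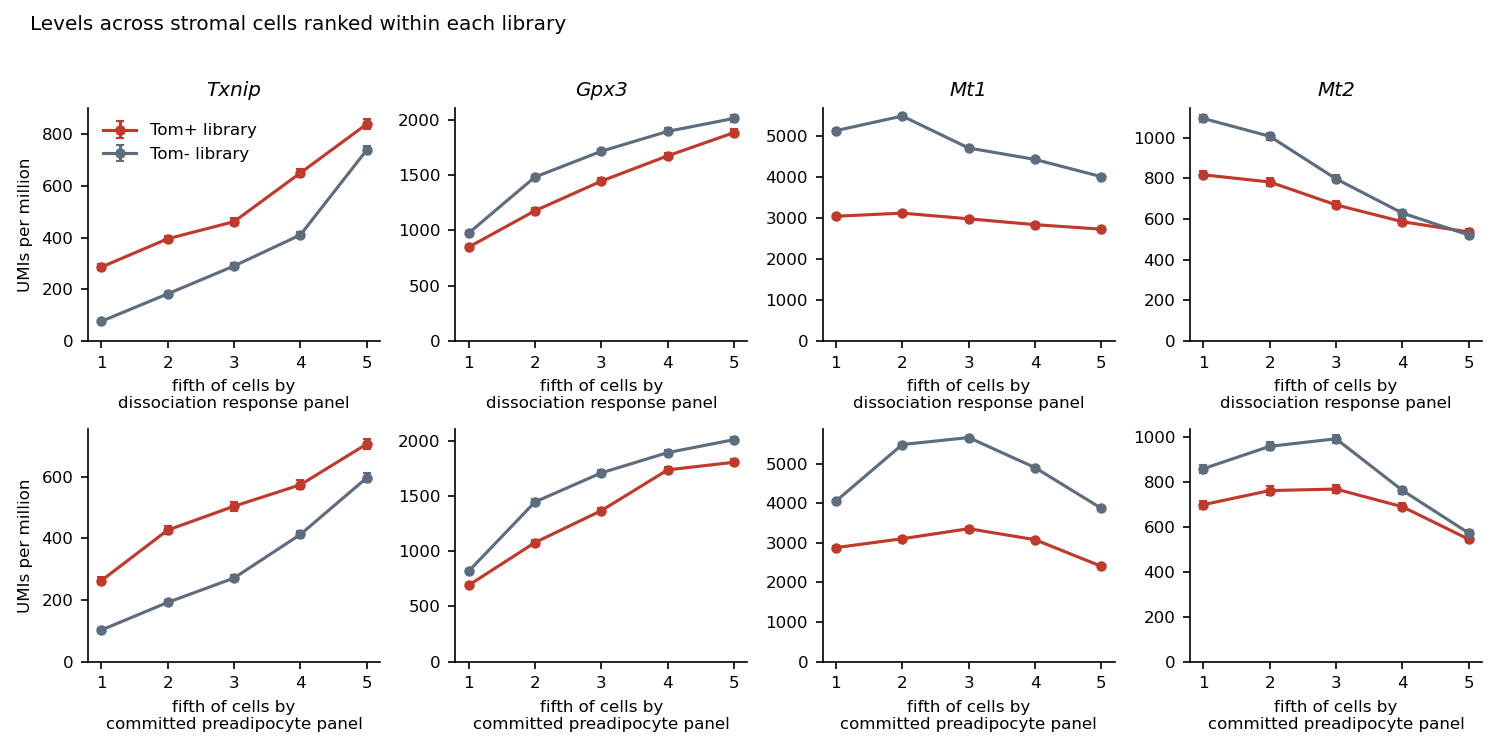
Levels of members in CPM (vertical axis) in quintiles of stromal cells ranked within each library by gene panels (horizontal axis, 1 lowest to 5 highest), for the Tom+ and Tom- libraries. Along the dissociation panel Txnip rises from 286 to 840 CPM for Tom+ and from 75.7 to 740 CPM for Tom-.

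Along a panel of committed preadipocyte genes, Txnip rose from 263 CPM in the lowest to 707 CPM in the highest quintile of Tom+ cells and from 103 to 597 CPM for Tom-, and the Tom+ over Tom- log2 ratio fell from 1.36 to 0.24. Along glucocorticoid response genes it moved the other way, from 696 to 148 CPM and from 479 to 121 CPM. Among the 5 measured genes of its arrestin family, none was past 1.5-fold between the libraries. Their median log2 ratio in stromal cells was 0.28, beside a median of 0.07 and an upper quartile of 0.25 for all genes. Arrdc3, another glucose-uptake and receptor-trafficking arrestin, had 0.50. Of 15 thioredoxin and peroxiredoxin genes, the proteins that TXNIP acts on and their partners, none was past 1.5-fold between the libraries in either class. Their medians were -0.09 in stromal and -0.02 in mesothelial cells.

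Gpx3 (ENSMUSG00000018339, chr11:54902453-54910377), which encodes the secreted glutathione peroxidase of plasma and tissue fluid, had the lowest mesothelial over stromal ratios of the 10 members. Stromal cells held 1268 CPM (1258 to 1278) when Tom+ and 1549 CPM (1539 to 1559) when Tom-, and mesothelial cells 140.3 CPM (130.5 to 151) and 239 CPM (234 to 245). Stromal cells were 9.04-fold and 6.47-fold above mesothelial cells, with mesothelial over stromal log2 ratios of -3.18 (-3.28 to -3.07) and -2.69 (-2.73 to -2.66). Tom+ was the lower library in both classes, with log2 ratios of -0.29 (-0.30 to -0.27) in stromal and -0.77 (-0.88 to -0.66), or 1.71-fold, in mesothelial cells. The stromal value shrank to -0.15 without shared barcodes and to -0.11 with stromal cells that also had at least 10 stromal marker UMIs and under 10 each from immunoglobulin markers and from Calca plus Ncam1, a choice that left 1564 of 3263 Tom+ but 4615 of 4800 Tom- cells.

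The mesothelial Gpx3 value depended on which cells were counted. It ranged from -1.39 without barcodes listed in both libraries, which left 150 Tom+ and 1680 Tom- mesothelial cells, to -0.17 over all deposited barcodes. In the 158 Tom+ and 1113 Tom- mesothelial cells with no UMI of Lum, an abundant stromal gene, Gpx3 was at 106 and 127 CPM, a log2 ratio of -0.26 (-0.43 to -0.10). In the 92 and 774 with at least 1 Lum UMI it was at 192 and 364 CPM, a ratio of -0.93 (-1.07 to -0.78). The split also sorted cells by depth. Median UMIs were 21820.5 and 17663.5 with a Lum UMI and 17127.5 and 13651 without. Lum itself had 44.0 CPM among Tom+ and 89.7 CPM among Tom- mesothelial cells. It was the 1 gene of the 7 in the stromal list past 1.5-fold lower in Tom+, beside 1.16% of all genes. Of the 7, 1 had a ratio above 0, and the median log2 ratio was -0.17. The part of stromal transcripts or of depth in the Gpx3 value was not tested. At 7563 UMIs a Gpx3 UMI was found in 38.5% and 39.8% of mesothelial cells, in 63.6% and 63.9% of immunoglobulin-rich cells, and in 88.0% and 91.9% of stromal cells; unthinned, the mesothelial shares were 58% and 55.2%. No class here is known to lack Gpx3, so its background share was not measured.

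Within the stromal class Gpx3 rose along the committed preadipocyte panel, from 691 to 1804 CPM for Tom+ and from 818 to 2009 CPM for Tom-, and fell along the interstitial progenitor panel, from 1667 to 786 CPM and from 1969 to 765 CPM. The 3 genes most like it across stromal cells were Lpl, the lipoprotein lipase gene, with r of 0.583 and 0.480, Cygb, which encodes the globin cytoglobin, with 0.435 and 0.447, and Serpinf1 with 0.395 and 0.402. Without immunoglobulin-rich cells Sparcl1 took the place of Serpinf1.

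Sod3 (ENSMUSG00000072941, chr5:52363791-52371418), the extracellular superoxide dismutase, had 189 and 215 CPM in Tom+ and Tom- stromal cells and 69.9 and 75.1 CPM in mesothelial cells. It was lower in mesothelial cells with log2 ratios of -1.44 (-1.59 to -1.29) and -1.52 (-1.58 to -1.45), and differed little between the libraries, with -0.18 (-0.22 to -0.14) in stromal and -0.10 (-0.27 to 0.05) in mesothelial cells. Both genes for antioxidant enzymes that act outside the cell were therefore higher in stromal cells. Of the 12 glutathione genes and of the 10 genes of superoxide dismutases, catalase and related proteins, none was past 1.5-fold between the libraries in either class. In mesothelial against stromal cells, 4 glutathione genes were higher and 2 lower for Tom+ and 4 and 1 for Tom-, beside 22.6% and 16.2% of all genes for Tom+ and 21.0% and 13.9% for Tom-, so the lower counts are near those of any genes. Among them were Gstp1, a glutathione transferase, with 1.68 and 1.60, Gss, the glutathione synthetase gene, with 1.37 and 1.28, and Ggt5, a cell-surface enzyme that cleaves glutathione conjugates, with -4.08 and -3.35. Of the dismutase and catalase list 1 gene was higher, Ucp2 with 2.39 and 2.83, and 1 lower, which is no more than the shares of all genes, the selenoprotein P gene Selenop with -1.18 and -1.70.

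Mt1 (ENSMUSG00000031765, chr8:94179082-94180327) and Mt2 (ENSMUSG00000031762, chr8:94172664-94173568) are neighbours on the plus strand, with 5513 bases between the end of Mt2 and the start of Mt1. Mt1 reached 2781 CPM (2766 to 2795) among Tom+ and 4681 CPM (4663 to 4699) among Tom- stromal cells, and 2488 CPM (2446 to 2530.4) and 3084 CPM (3064 to 3103) in mesothelial cells. Mt2 was counted at 646 CPM (639 to 653) and 809 CPM (802 to 817) in stromal cells, and at 828 CPM (803 to 852) and 772 CPM (762 to 781) in mesothelial cells. The Tom- stromal cells were the highest group for Mt1, and the Tom+ stromal cells the lowest for Mt2.

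In Tom+ stromal cells Mt1 was 1.68-fold lower than in Tom-, a log2 ratio of -0.75 (-0.76 to -0.74) that only 1.89% of genes went below, and Mt2 had -0.33 (-0.35 to -0.30), a direction that was lost in some quintiles of stromal cells described with the gene panels. In mesothelial cells Mt1 had -0.31 (-0.34 to -0.28) and Mt2 0.10 (0.05 to 0.15). The stromal Mt1 value was past 1.5-fold under 11 of 11 alternative settings, from -0.83 to -0.61, and was -0.66 without shared barcodes and -0.70 without immunoglobulin-rich cells. Mesothelial over stromal ratios were -0.16 and -0.60 for Mt1 and 0.36 and -0.07 for Mt2 in the Tom+ and Tom- libraries.

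The 250 bases before each metallothionein start in the RefSeq table are shown because the genes respond to metals through elements in their promoters. The sequences are from RefSeq on GRCm38.p6, both on the plus strand, Mt1 at chr8:94178839-94179088 and Mt2 at chr8:94172368-94172617, 5′ to 3′, with matches to the metal response cores TGCACNC and TGCGCNC on either strand in capitals.
Mt1: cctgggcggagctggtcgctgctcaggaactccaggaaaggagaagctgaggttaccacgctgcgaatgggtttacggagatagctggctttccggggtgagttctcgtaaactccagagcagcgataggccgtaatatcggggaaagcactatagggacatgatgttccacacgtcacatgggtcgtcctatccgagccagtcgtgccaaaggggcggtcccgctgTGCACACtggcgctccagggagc
Mt2: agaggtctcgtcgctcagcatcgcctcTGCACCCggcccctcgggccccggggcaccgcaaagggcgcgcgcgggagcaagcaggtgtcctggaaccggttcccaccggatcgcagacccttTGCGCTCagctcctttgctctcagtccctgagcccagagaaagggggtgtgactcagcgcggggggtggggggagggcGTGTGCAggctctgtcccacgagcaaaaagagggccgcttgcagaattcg
Mt1 had 1 match, 23 to 17 bases before the RefSeq start, and Mt2 had 3, at 223 to 217, 128 to 122 and 50 to 44 bases before it. RefSeq's starts differ from the gene starts given above: the Mt1 window runs past that gene's start and the Mt2 window ends short of it, and the 30 bases after the Mt2 window were not found in a transcript, so its distances are uncertain. The match counts of both genes cover these windows only, and the distances depend on the start used. TGCACNC was found in 10.4% and TGCGCNC in 12.5% of the 32851 windows, so single matches are common. Metal response cores were not limited to the metallothioneins. TGCGCNC had 2 matches in the Gclm window and 1 in the Txnip window, where it is not in capitals. The antioxidant response core TGACNNNGC, held by 10.2% of windows, was found in 4 of the 10 windows of the 8 members that had any, those of Nfe2l2, Gclm and Mt2 and 1 of the 3 of Txnrd1. The 30 bases after the Nfe2l2 window were not found in a transcript either. Nqo1 and Gpx3 had no match to any of the 4 motifs in this window, which says nothing of sites elsewhere.

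Metallothionein UMIs were unevenly spread over cells. At 7563 UMIs the median Tom+ stromal cell held 16 Mt1 UMIs and the median Tom- stromal cell 26, with 212 and 264 in the highest cell, while median mesothelial cells held 15 and 18. Mt1 was found in over 99% of thinned cells of all 4 groups, and in 94.4% and 90.2% of immunoglobulin-rich cells, so the share of cells could not show a difference. Mt1 and Mt2 varied together, with r of 0.676 and 0.695 in stromal cells without immunoglobulin-rich ones (3118 and 4733 cells) and 0.669 and 0.711 in mesothelial cells (250 and 1886). Txnip ran against both, with r of -0.305 and -0.341 to Mt1 and -0.345 and -0.369 to Mt2 in stromal cells.

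**Figure D4:**
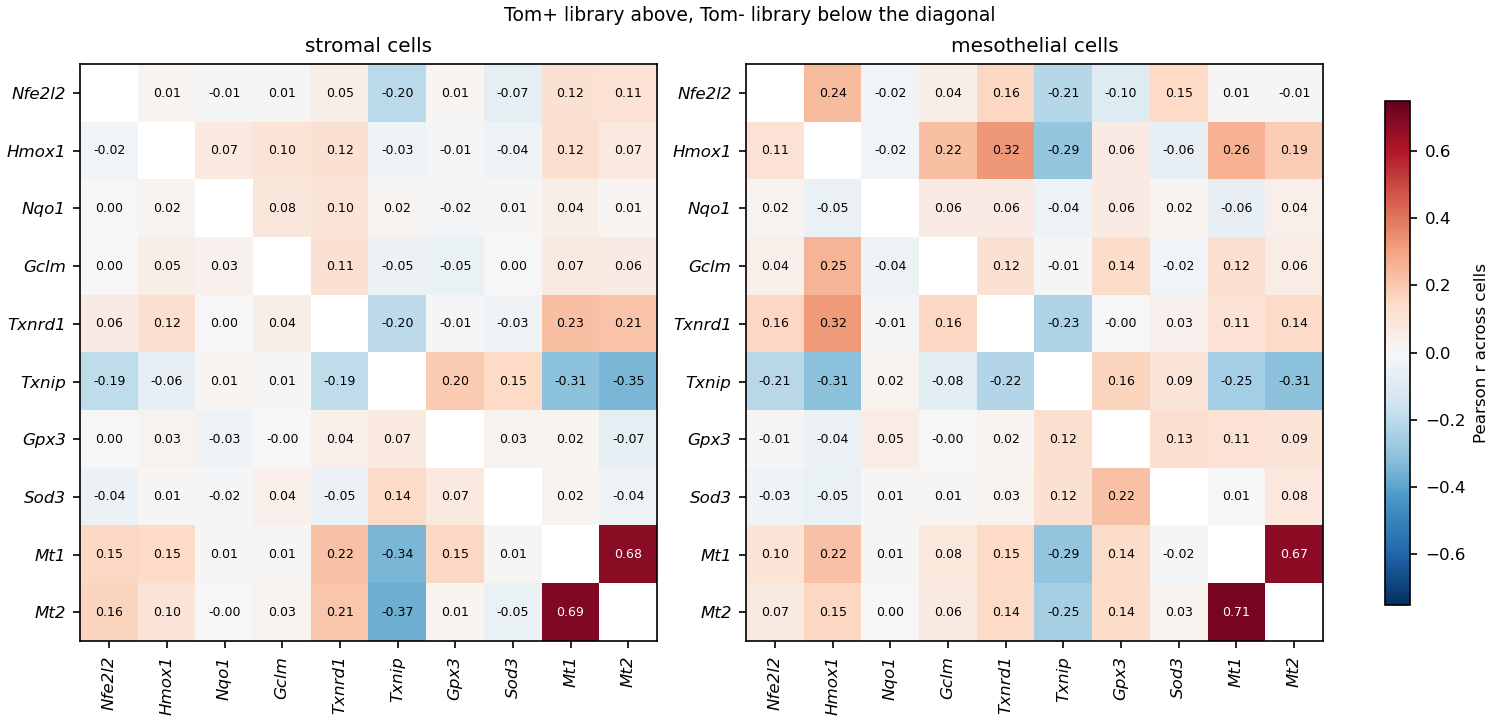
Pearson r of normalized levels between each pair of the 10 genes across cells of 1 class and library, as colour and number, without immunoglobulin-rich cells. Mt1 with Mt2 is the highest pair in every panel, from 0.669 to 0.711, and Txnip with either metallothionein is below 0 in stromal cells.

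The genes most like Mt1 across all stromal cells were, besides Mt2, Cebpb, a transcription factor of early adipogenesis and inflammation, with r of 0.424 and 0.440, and Tnfaip6, an inflammation-induced hyaluronan-binding protein gene, with 0.408 and 0.432. For Mt2 they were, besides Mt1, the hyaluronan synthase gene Has1 with 0.437 and 0.480 and the chemokine gene Cxcl1 with 0.421 and 0.458. Without immunoglobulin-rich cells Il6, with 0.397 and 0.460, took the place of Tnfaip6 for Mt1, and the genes for Mt2 were the same. No gene reached an r of 0.3 in both libraries for the other 6 members. In mesothelial cells Hmox1 had r of 0.323 and 0.317 to Txnrd1 and 0.224 and 0.255 to Gclm. It also had 0.262 and 0.218 to Mt1, and -0.29 and -0.31 to Txnip.

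Along the dissociation panel Mt2 fell from 817 CPM in the lowest to 536 CPM in the highest quintile of Tom+ and from 1094 to 521 CPM in Tom- stromal cells, opposite to Txnip, and its Tom+ over Tom- log2 ratio went from -0.42 to 0.04. Along the glucocorticoid response genes Mt1 was at 2582, 2564, 2861, 3133 and 3752 CPM for Tom+ and at 4528, 4526, 4991, 4677 and 5283 CPM for Tom-, higher in the last quintile than in the first but not at every step. Mt2 went from 612 to 863 CPM for Tom+ but only from 820.2 to 831 CPM for Tom-, so that its ratio went from -0.42 to 0.05. Along the same ranking Nfe2l2 went from 191 to 286 CPM and from 267 to 338 CPM. Mt1 remained lower in the Tom+ library along the interstitial progenitor panel, where its Tom+ over Tom- log2 ratio went from -0.57 in the lowest to -0.81 in the highest quintile, while that of Mt2 went from 0.09 to -0.44. Of the 8 glucocorticoid response genes, none was past 1.5-fold between the libraries in either class, and 3 were lower and none higher in mesothelial than in stromal cells of both libraries, beside 16.2% and 13.9% of all genes lower. Of the dissociation panel itself, 4 of 18 genes were past 1.5-fold lower in Tom+ stromal cells, beside 3.25% of all genes, Socs3 with -0.85, Ier3 with -0.69, Hspa1a with -0.66 and Nr4a1 with -0.59, and none in mesothelial cells. Its part in the Txnip, Mt1 and Mt2 values was not tested.

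Metal handling was also read from 14 measured genes. None was past 1.5-fold between Tom+ and Tom- in stromal or in mesothelial cells, with medians of 0.07 and 0.04. Mesothelial cells were past 1.5-fold higher than stromal cells in 2 and lower in 3 of them in both libraries, counts close to the shares of all genes (22.6% and 16.2% for Tom+, 21.0% and 13.9% for Tom-), so only the single genes are described. The zinc and manganese importer gene Slc39a8 was at 398 and 384 CPM in Tom+ and Tom- mesothelial cells and at 6.52 and 8.52 CPM in stromal cells, log2 ratios of 5.93 and 5.49. The zinc exporter gene Slc30a1, itself a target of MTF1, was higher with 1.86 and 1.93. The importer gene Slc39a14 was lower with -1.80 and -2.21, and Cp, which encodes the copper-carrying ferroxidase ceruloplasmin, with -2.52 and -2.54.

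The sort is not the only mark of the reporter, since tdTomato UMIs were counted in single cells too. In the Tom+ library, 799 stromal cells held a tdTomato UMI and 2319 did not, immunoglobulin-rich cells aside, and a cell without a UMI may still carry the reporter. Txnip was at 458 CPM in the former and 524 CPM in the latter, a log2 ratio of -0.19 (-0.24 to -0.15), which is opposite in sign to the ratio between the libraries. Mt1 had -0.07 (-0.75 between the libraries, or -0.70 without immunoglobulin-rich cells), Nfe2l2 -0.01 (-0.47, or -0.39) and Mt2 -0.145 (-0.33, or -0.26). The same split of Tom- stromal cells, which were sorted as tdTomato-negative, gave 612 cells with a UMI and 4121 without. Txnip was lower with a UMI there too, with a log2 ratio of -0.13 (-0.20 to -0.07). Mt1 had -0.03, Nfe2l2 -0.009 and Mt2 -0.08. A lower Txnip level in stromal cells with a tdTomato UMI was therefore not particular to the Tom+ library. Among Tom+ mesothelial cells, 198 with a tdTomato UMI and 52 without, Gpx3 was lower in the former, at 125 against 187 CPM with a ratio of -0.57 (-0.80 to -0.35), and Txnip higher, at 171 against 114 CPM with 0.58 (0.32 to 0.85). In the Tom- library, where 216 mesothelial cells held a tdTomato UMI and 1670 did not, the Gpx3 ratio had the opposite sign, 0.48 (0.40 to 0.56). Depth also differed between these groups of mesothelial cells. The median cell with and without a tdTomato UMI held 17550 and 24467 UMIs for Tom+ and 20297 and 14373 for Tom-. Gpx3 was higher in the deeper group of each library. In stromal cells ranked by UMIs it was the other way. Gpx3 was at 1820 CPM in the lowest and 1042 CPM in the highest quintile for Tom+, and at 1922 and 1208 CPM for Tom-. The part of depth in the ratios was not tested.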

How the data were processed

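Libraries were made with the 10x Chromium Single Cell 3′ kit (v3.1) and counted by the authors with Cell Ranger 3.0.2 on mm10, per the submitters' processing notes. The deposited matrices hold raw UMI counts per gene and barcode for 2 libraries. The members, lists and tests were chosen with earlier results of these data known. UMIs were summed per library and class and scaled to counts per 1000000 (CPM). Ratios have exact conditional binomial 95% intervals, levels exact Poisson intervals and shares exact Clopper-Pearson intervals. A difference was counted past 1.5-fold with a mean of at least 5 CPM, and the ratio function was tested on simulated data. All 10 members are named, and of each other list at most 6 genes by size of ratio; genes most like a member needed r of at least 0.3 in both libraries and 50 CPM. Lum was chosen after its values were seen. No doublet caller was run, so immunoglobulin-rich cells and cells with 3 or more UMIs of Lyz2, Cd68 and Ptprc were left out as alternatives. Promoter sequences came from a RefSeq table, in which 8 of 10 members had a window; Hmox1 and Sod3 had none. Gene positions are those of GENCODE vM21. Intervals came from scipy 1.17.1, tables from pandas 2.3.3, arrays from numpy 2.4.6 and figures from matplotlib 3.10.9, under Python 3.11.15.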

Additional observations from a re-analysis of the deposited data

Results flagged for a closer look

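There were 3 members with a Tom+ over Tom- ratio of one sign in stromal cells and the other in mesothelial cells, with both counting intervals clear of 0. Hmox1 had log2 ratios of -0.46 and 0.13, Txnrd1 of -0.14 and 0.26, and Mt2 of -0.33 and 0.10. None of the 6 values was past 1.5-fold, and the stromal sign of each of the 3 genes turned in some quintiles of stromal cells. With 1 library per group, whether the classes differ was not tested.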

How the results depend on the processing

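With 11 alternative settings, 281 of 440 ratios of single members moved by less than their counting interval, 159 moved by more, and none past 1.5-fold changed sign. The count of members past 1.5-fold in mesothelial cells, Tom+ over Tom-, was 1 and became 0 with all deposited barcodes, 0 without the 5% of cells with most UMIs and 0 with every cell weighted equally, where Gpx3 had -0.17, -0.43 and -0.57. In stromal cells the count was 2 and became 1, Mt1, with stricter marker limits of at least 20 and under 2 UMIs, and 1 with median-of-ratios size factors, where Txnip had 0.52. Between classes the count stayed at 6 in the Tom+ library and ranged from 6 to 8 in the Tom- library. Those size factors moved the median of all genes from 0.11 to -0.05 and from 0.14 to -0.02 between classes, and turned the genes past 1.5-fold from 3.86% higher and 3.25% lower to 2.58% and 4.16% in stromal cells, from 1.87% and 1.16% to 1.23% and 1.66% in mesothelial cells, from 22.6% and 16.2% to 17.6% and 20.9% between classes in the Tom+ library, and from 21.0% and 13.9% to 16.2% and 17.6% in the Tom- library. Values under 0.25 in size that changed sign under a setting belonged to Nfe2l2, Nqo1, Gclm and Txnip. The cause was not tested. No paired analysis was possible because each group is 1 library, and no replicate could be left out.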

Other observations

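Genes of heme handling and of reactive oxygen production were also counted. Of 8 heme handling genes, none was past 1.5-fold between the libraries in either class. Their median log2 ratio in stromal cells was -0.17, beside a median of 0.07 and a lower quartile of -0.11 for all genes. In mesothelial cells against stromal cells, 4 were higher and 1 lower in the Tom+ library and 2 and 1 in the Tom- library, beside 22.6% and 16.2% and 21.0% and 13.9% of all genes, so the Tom- count is near that of any genes. Slc48a1, a heme transporter gene, was higher with 1.43 and 1.32 and Flvcr1, a heme exporter gene, with 1.18 and 0.97, while Alas1, which starts heme synthesis, was lower with -1.41 and -1.55.

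Of 9 genes whose products make reactive oxygen, 7 were measured between classes in the Tom+ and 6 in the Tom- library. In mesothelial cells 1 was higher and 2 lower for Tom+, beside 22.6% and 16.2% of all genes. For Tom- 1 was higher and 3 lower, beside 21.0% and 13.9%. With so few genes the counts say nothing particular to the list. Nox4, an NADPH oxidase of fibroblasts, was lower in mesothelial than in stromal cells with log2 ratios of -3.59 and -3.46. Aox1 was lower with -1.72 and -1.36, and the monoamine oxidase gene Maoa was higher with 1.03 and 1.33. Between the libraries 7 genes of this list were measured in stromal and 6 in mesothelial cells. Cybb, the NADPH oxidase of phagocytes, was the 1 past 1.5-fold, higher in Tom+. Of all genes 3.86% were higher in stromal and 1.87% in mesothelial cells. Cybb had 11.4 CPM among Tom+ and 3.04 CPM among Tom- stromal cells and 9.77 and 0.464 CPM in mesothelial cells. The macrophage gene Lyz2 moved with it, at 130.3 and 20.5 CPM in stromal and 275 and 10.8 CPM in mesothelial cells. Cells with at least 3 UMIs of Lyz2, Cd68 and Ptprc numbered 93 and 47 among stromal and 17 and 18 among mesothelial cells, and their part in the Cybb values was not tested.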
